A study of Mus musculus with 38 samples.

Results

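Melanocytes sorted from the dorsal skin of nevus mice at postnatal day 56 (P56) were compared with wild type melanocytes sorted at postnatal day 30 (P30), when wild type hair follicles are in anagen, their growth phase. The comparison rests on 4 of the 38 bulk RNA sequencing libraries of the series, 2 for each group. The melanocyte table listed 22282 genes, of which 17324 were protein coding, and the 12222 of these with 1 FPKM or more in at least 2 of the 4 libraries were tested. FPKM is a read fragment count scaled to transcript length and library size. The mutant mice were *Tyr-Nras* Q61K;*Tyr-CreER* T2;*tdTomato*, and the wild type mice were *Tyr-CreER* T2;*tdTomato*. Both groups were given tamoxifen, so that Cre recombination switched on the red tdTomato reporter in cells using the tyrosinase (*Tyr*) promoter, and tdTomato+ cells were sorted. The same *Tyr* promoter drove the oncogenic *Nras* transgene, which models congenital nevi. A further 2 libraries of wild type melanocytes at P56, when wild type follicles rest (telogen), are given as side values. The mutant was profiled at P56 alone, so genotype, age and hair cycle phase cannot be told apart in the comparison with P30. The study's methods describe biological replicates, but the labels tie the 2 libraries of a group to no separate animals, and p-values therefore reflect library spread alone, possibly a technical one.

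Melanocytes are pigment cells of neural crest origin. In growing follicles they sit at the hair base, express the enzymes *Tyr*, *Tyrp1* and *Dct* under the transcription factor MITF, and pass pigment to the cells that form the shaft, while resting follicles hold melanocyte stem cells instead. An activating RAS mutation can push melanocytes into senescence, a lasting arrest with raised cyclin dependent kinase inhibitors and a secretome of cytokines, growth factors and proteases known as the senescence-associated secretory phenotype (SASP), and such arrested cells make up a nevus.

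Of the 12222 genes tested, 2695 (22.1%) were called, which required a change of 2-fold or more and an adjusted p under 0.05. In the mutant 1491 (12.2%) were higher and 1204 (9.85%) were lower. With quantile normalization the split was 1278 higher and 1516 lower. The change is given as a log2 difference of FPKM + 1, mutant minus wild type P30, ± its standard error from limma (n = 2 for each group), a scale that understates the ratio for genes of low FPKM. At 4-fold or more there were 344 higher and 102 lower genes, and at 8-fold or more 92 and 6. The adjusted p alone passed in 8374 genes, of which 5679 changed by under 2-fold. Most genes thus passed on p alone, so counts by p in the gene lists below say little by their number. The median change over all genes tested was 0.13, and against wild type P56 it was 0.05. In 83.5% of genes the 2 mutant libraries did not overlap with the 2 wild type P30 libraries, so a lack of overlap says little about a single gene. A gene that passed the filter through its mutant libraries alone had to be higher, so list counts are also given with 1 FPKM required in all 4 libraries wherever this changed them by over 1.5 times. Against wild type P56 melanocytes, in the same fit and over the same genes, 3630 (29.7%) were called, 1965 (16.1%) higher and 1665 (13.6%) lower. Both comparisons share the mutant libraries, so their values are set side by side and not counted as independent.

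**Figure D1:**
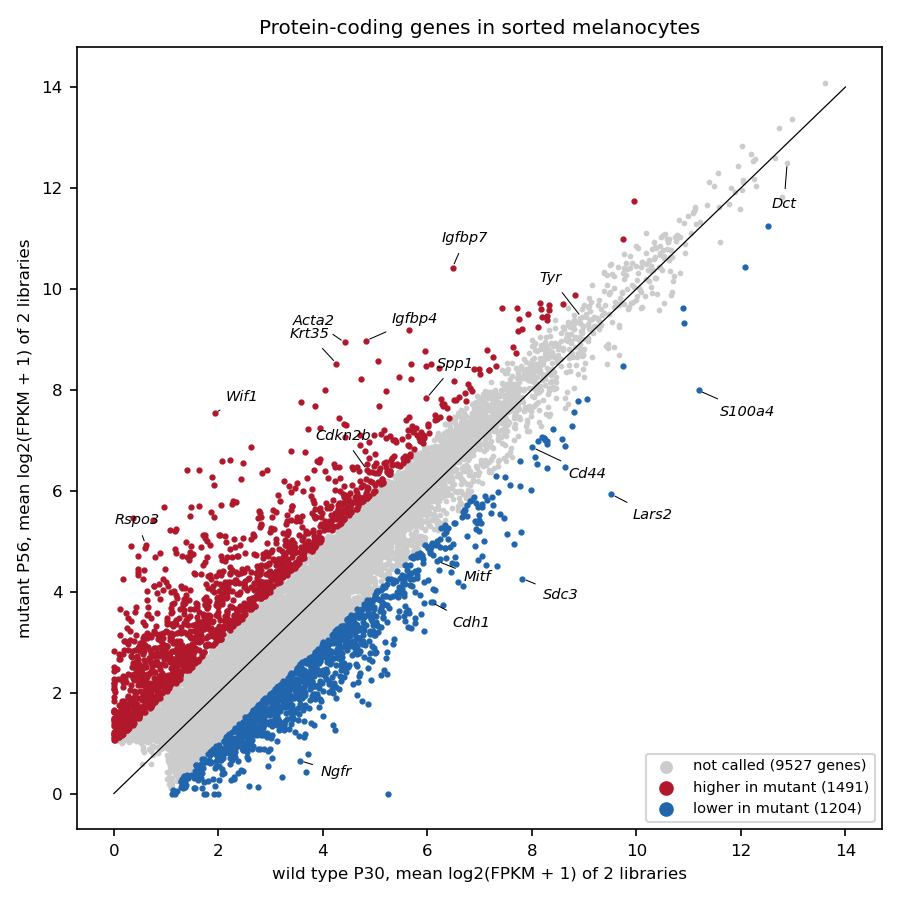
Mean log2(FPKM + 1) of each of the 12222 tested genes in the 2 wild type P30 libraries (horizontal axis) and in the 2 mutant P56 libraries (vertical axis), with the line of equal values. Red points are the 1491 genes called higher in the mutant and blue points the 1204 called lower. *Wif1*, *Acta2*, *Igfbp4* and *Igfbp7* lie far above the line, and *Lars2*, *Sdc3* and *S100a4* far below it.

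Library depth is unknown, since the table holds no counts. FPKM values summed to 703179 and 730638 in the wild type P30 libraries and to 800903 and 822818 in the mutant ones, and 11530 to 11805 protein-coding genes reached 1 FPKM in the 4 libraries. Across genes, which are not independent replicates, log2 values of the replicates correlated at 0.990 in wild type P30 and 0.996 in the mutant, and those of libraries of different groups at 0.904 to 0.906. Pigment cell markers were high in all 4 libraries, with *Mlana* at 4369 and 3938 FPKM in wild type P30 and 7429.9 and 7172 in the mutant. Markers of other skin cells were present too. In bulk samples fewer cells of a type and less RNA per cell cannot be told apart.

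The change followed transcript length. Over the 12118 tested genes with an annotated transcript, Spearman's rho between the log2 change and the length of the longest coding transcript was -0.386. Of 4 bins with like numbers of genes, the bin of the shortest transcripts (87 to 1903 bases) held 17.4% higher and 3.83% lower genes with a median change of 0.39. The bin of the longest (4532 to 123179 bases) held 6.57% higher and 22.5% lower genes with a median of -0.44. Between the 2 libraries of a group rho was -0.0784 in wild type P30, -0.10 in the mutant and -0.127 in wild type P56. Against wild type P56 the medians of the bins, from short to long, were -0.06, 0.31, 0.24 and -0.23. To see which results follow this trend, the values were also centred within 20 bins of transcript length, an alternative chosen after the trend was seen. It gave 2265 called genes, 1378 higher and 887 lower. Of 174 called genes taken up by name for the results that follow, 13 then came under 2-fold, namely *Cd44*, *Mitf*, *Ptpn11*, *Dusp2*, *Adamts1*, *Eif2ak3*, *Glb1*, *Srebf2*, *Insig1*, *Pgam1*, *Col3a1*, *Mrc1* and *Ddx3y*. What lies behind the trend was not tested.

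**Figure D2:**
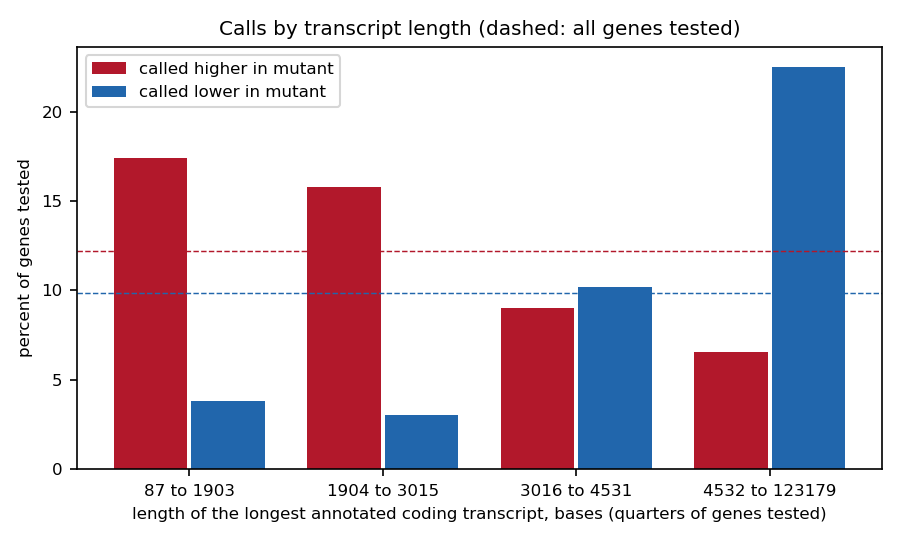
Share of tested genes called higher (red) and lower (blue) in the mutant, in percent, for 4 bins of genes by length of the longest annotated coding transcript in bases. Dashed lines mark the shares over all genes, 12.2% higher and 9.85% lower. Higher calls drop from 17.4% in the bin of shortest transcripts to 6.57% in the longest, and lower calls go from 3.83% to 22.5%.

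Pigment genes were among the most abundant transcripts of both groups, and the main enzymes differed by under 2-fold. *Dct* (dopachrome tautomerase, chromosome 14, 118012790 to 118052244 on GRCm38) stood at 7568 and 7556 FPKM in wild type P30 and at 5995 and 5619.9 in the mutant (-0.38 ± 0.08, adjusted p = 0.00317), under the 2-fold threshold. *Tyr*, the rate-limiting enzyme of melanin synthesis (chromosome 7, 87424771 to 87493512), stood at 479 and 509 FPKM and 706 and 675 FPKM (0.48 ± 0.07, adjusted p = 0.00044). The mutant libraries were the higher ones in *Tyr* and the lower ones in *Dct*, without overlap. With length-centred values the *Tyr* change was 1.04 and passed the threshold. For *Tyrp1* the log2 change was -0.23 ± 0.07 and for *Pmel*, which forms the fibrils of the melanosome, it was 0.05 ± 0.09 (95% interval -0.17 to 0.27), with overlapping libraries at 3021 and 3079.6 FPKM against 3377 and 2959.6. The sign of the *Pmel* change depended on the scaling.

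Over 33 pigment synthesis and melanosome genes 4 were higher and 4 lower, with a median change of 0.19. This is close to the share and median of all genes. Against wild type P56 19 of the 33 were higher and 2 lower, with a median of 1.10. The summed FPKM of the list was 25079 and 24775 in wild type P30, 27175 and 25600.1 in the mutant and 13577 and 12915 in wild type P56. *Mreg*, which encodes the organelle tethering protein melanoregulin, rose from 9.88 and 8.32 to 34.5 and 37.4 FPKM (1.87 ± 0.12, adjusted p = 7.32e-06). *Slc7a11*, the cystine transporter needed for pheomelanin, rose from 1.69 and 2.28 to 8.3 and 8.06 FPKM (1.63 ± 0.17). *Myo5a*, the motor that carries melanosomes along actin, fell from 115 and 124 to 28.5 and 29.7 FPKM (-2.0 ± 0.08, adjusted p = 7.31e-07). *Lyst*, a regulator of lysosome-related organelle size, fell from 5.77 and 5.61 to 1.13 and 1.37 FPKM (-1.57 ± 0.13). Thus *Tyr*, *Tyrp1* and *Dct* stayed within 2-fold of anagen levels, though *Tyr* passed it with length-centred values. *Mreg*, *Slc7a11*, *Myo5a* and *Lyst* are the largest calls of a list whose share of calls is close to that of all genes.

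The promoter of *Tyr* is shown because the transgene and the Cre of these mice are driven by the regulatory region of this gene. The sequence is the RefSeq window on GRCm38.p6 (chr7:87493463-87493762, minus strand), from 250 bases before to 50 bases after the transcription start. Capitals mark the CATGTG match, an E-box that MITF is known to bind, which starts 21 bases before the start.
*Tyr*: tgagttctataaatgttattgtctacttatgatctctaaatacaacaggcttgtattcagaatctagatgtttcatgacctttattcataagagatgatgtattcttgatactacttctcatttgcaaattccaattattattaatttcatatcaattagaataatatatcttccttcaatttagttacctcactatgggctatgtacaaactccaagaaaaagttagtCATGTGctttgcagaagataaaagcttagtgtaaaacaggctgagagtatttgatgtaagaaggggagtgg
Searched on both strands, CATGTG was found in 34.4% of the 32 windows of 28 pigment genes and in 14.2% of all 32851 windows. The related CACGTG was found in 25% and 7.15%. Over the 11876 windows of all tested genes the shares were 8.45% for CATGTG and 9.84% for CACGTG. A match is a description of letters and says nothing of binding in these cells.

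**Figure D3:**
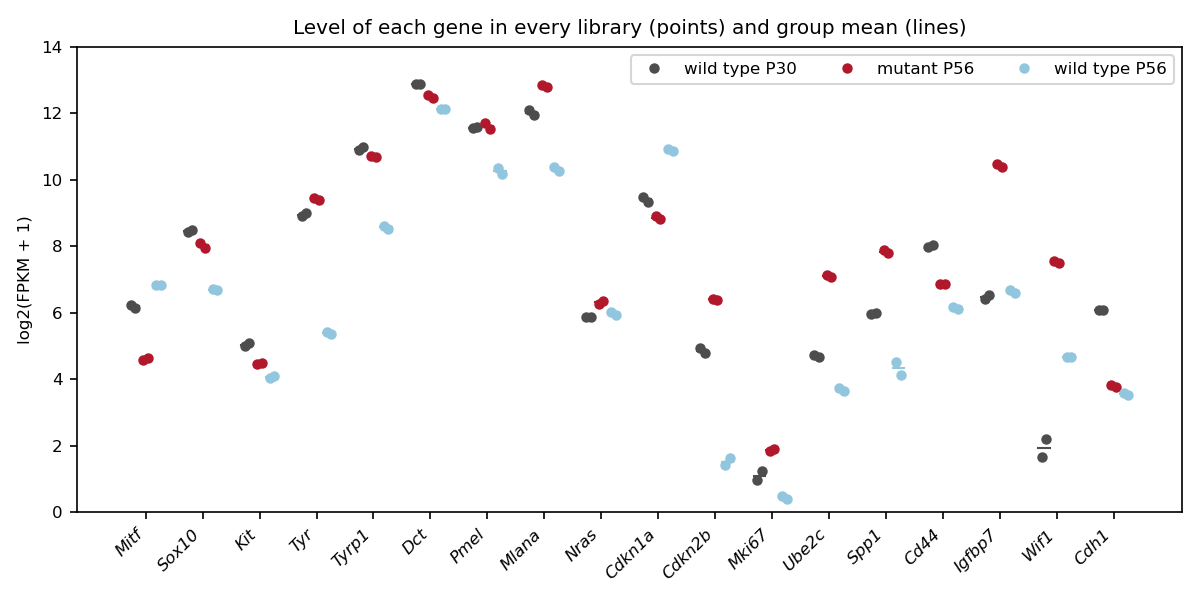
Level of each gene as log2(FPKM + 1) in every library (points), with the group mean as a line, for wild type P30 (dark grey), mutant P56 (red) and wild type P56 (light blue). *Dct*, *Tyrp1* and *Pmel* of the mutant lie near wild type P30, *Wif1*, *Igfbp7* and *Spp1* lie above it, and *Mitf*, *Cd44* and *Cdh1* below it.

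Among regulators of the lineage, *Mitf* and several receptors were lower in the mutant. *Mitf* (ENSMUSG00000035158.15, chromosome 6, 97807052 to 98021349), the master transcription factor of melanocytes, stood at 74.9 and 69 FPKM in wild type P30 and 22.9 and 23.9 FPKM in the mutant (-1.58 ± 0.08, adjusted p = 2.22e-06), while wild type P56 libraries held 114 and 113 FPKM. The mutant was the lowest of the 3 groups. With length-centred values its fall came just under 2-fold and lost the call. *Sox10*, the neural crest factor that acts upstream of *Mitf*, stood at 346 and 355 FPKM against 275 and 248 (-0.42 ± 0.07), and *Kit*, the receptor for stem cell factor, at 30.9 and 33 against 21.1 and 21.4 (-0.57 ± 0.09), both under 2-fold. *Ngfr*, the low affinity nerve growth factor receptor of neural crest cells, fell from 11.4 and 10.3 to 0.6 and 0.54 FPKM (-2.91 ± 0.13, adjusted p = 1.41e-06). *Erbb3*, the neuregulin receptor, fell from 28.9 and 28.8 to 5.96 and 5.79 FPKM (-2.12 ± 0.11). *Lef1*, a transcription factor of WNT signalling, rose from 8.37 and 9.5 to 43.6 and 46.5 FPKM (2.21 ± 0.10, adjusted p = 1.89e-06). *Fgfr2*, a receptor for fibroblast growth factors, rose from 2.83 and 3.72 to 16.1 and 16.3 FPKM (2.01 ± 0.13). Of 26 melanocyte transcription factors and receptors 3 rose and 8 fell (median -0.28). With length-centred values 3 fell.

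Among 15 tested Schwann cell and glial markers 4 rose and 3 fell, with a median of -0.53. One that rose, *Sostdc1*, is better known as a WNT and BMP inhibitor and is given below. With length-centred values 5 fell. *Foxd3*, a transcription factor of neural crest progenitors, fell from 29.3 and 26.8 to 4.4 and 4.79 FPKM (-2.38 ± 0.09, adjusted p = 8.17e-07), with 72.2 and 72 FPKM in wild type P56. *Cdh19*, a cadherin of Schwann cell precursors, fell from 12.8 and 13.9 to 2.71 and 3.13 FPKM (-1.87 ± 0.16). *Dhh*, a hedgehog ligand of Schwann cells, rose from 3.8 and 3.78 to 16.1 and 14.2 FPKM (1.75 ± 0.12, adjusted p = 1.21e-05).

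The transgene was checked through *Nras* itself (chromosome 3, 103058285 to 103067914). The libraries labelled mutant held 76.5 and 81.3 FPKM and those of wild type P30 57.9 and 57.3 FPKM, a difference of 0.45 ± 0.08 without overlap and under 2-fold. Whether reads of the transgene were counted under mouse *Nras* was not stated, so this value may not show transgene expression. Of 21 RAS and MAPK pathway components 2 rose and 2 fell, or 1 rose with 1 FPKM in all 4 libraries and 1 fell with length-centred values. The main counts are close to the shares over all genes, 12.2% higher and 9.85% lower. *Hras*, a sister of *Nras*, rose from 74.7 and 65.1 to 195 and 165 FPKM (1.35 ± 0.10, adjusted p = 1.7e-05). *Rasgrp2*, an activator of RAP and RAS proteins, stood at 2.01 and 0.05 FPKM in wild type P30, a wide spread, and at 13.7 and 8.8 in the mutant (2.75 ± 0.43). *Shoc2*, a scaffold that activates RAF, fell from 8.72 and 9.55 to 2.62 and 2.8 FPKM (-1.45 ± 0.12), and *Ptpn11*, the phosphatase SHP2, from 13.6 and 11.8 to 4.44 and 4.38 FPKM (-1.33 ± 0.11).

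Of 29 feedback and target genes of the MAPK pathway 4 rose and 3 fell, with a median of 0.26. These counts are close to the shares over all genes, 12.2% higher and 9.85% lower. *Ccnd1*, which encodes cyclin D1, rose from 44.3 and 52.4 to 123 and 145 FPKM (1.46 ± 0.13, adjusted p = 3.14e-05). *Dusp2*, a phosphatase that inactivates ERK, rose from 10.5 and 12.3 to 33 and 33.2 FPKM (1.46 ± 0.09). *Fosb*, a subunit of the AP-1 transcription factor, fell from 178 and 187 to 33.5 and 35.1 FPKM (-2.38 ± 0.07, adjusted p = 3.1e-07). *Il6*, a cytokine gene that AP-1 can activate, fell from 17.5 and 16.7 to 2.94 and 3.43 FPKM (-2.12 ± 0.11). *Fosb* is also an early response gene of tissue dissociation (below).

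Genes of cell cycle arrest moved unevenly. *Cdkn2b*, which encodes the cyclin dependent kinase inhibitor p15 (ENSMUSG00000073802.4, chromosome 4, 89306299 to 89311039), stood at 29.4 and 26.4 FPKM in wild type P30, at 84.6 and 82.7 FPKM in the mutant and at 1.67 and 2.07 FPKM in wild type P56. The mutant was the highest and wild type telogen the lowest, and the log2 change against anagen was 1.55 ± 0.11 (adjusted p = 1.1e-05) compared with 4.89 against telogen. *Cdkn2a*, which encodes p16 and ARF, stayed under 1 FPKM in all libraries (0.28 and 0.1 in wild type P30, 0.08 and 0.23 in the mutant) and was not tested. *Cdkn1a*, which encodes p21, was at 719 and 649.5 FPKM in wild type P30 and at 477 and 454 FPKM in the mutant (-0.55 ± 0.08, adjusted p = 0.000368), under 2-fold, with 1937 and 1861 FPKM in wild type P56.

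Of 35 tested arrest and senescence genes 9 rose and 4 fell (median 0.13), beside 12.2% and 9.85% of all genes. *Lzts1*, a leucine zipper tumour suppressor, rose from 0.38 and 0.27 to 12.1 and 10.3 FPKM (3.20 ± 0.14, adjusted p = 1.35e-06). *H2afx*, whose histone product marks DNA breaks when phosphorylated, rose from 25.4 and 28.5 to 114 and 106 FPKM (1.98 ± 0.09). *Mcl1*, a survival protein of the BCL2 family, fell from 177 and 176 to 40.8 and 45.8 FPKM (-2.01 ± 0.09, adjusted p = 1.35e-06). *Ets1*, a transcription factor downstream of RAS, fell from 55.8 and 57.7 to 13.8 and 14.6 FPKM (-1.93 ± 0.08). *Cdkn2b*, *Lzts1* and *H2afx* also belong to 17 senescence and mitosis genes that the study named on these samples. All 17 were called higher here, which follows from how they were chosen and is no independent evidence.

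Mitosis genes were mostly higher. Of 38 tested 28 rose and 0 fell by limma (35 positive and 1 negative at an unadjusted p under 0.05), with a median change of 1.56 against 0.13 over all genes. 12.2% of all genes rose. Of these 38 genes 13 are among those the study named on these samples, which is no independent evidence of direction, and of the other 25 genes 15 rose (median 1.13). *Cdca3*, a trigger of mitotic entry, rose from 9.13 and 9.88 to 61.3 and 62.6 FPKM (2.58 ± 0.09, adjusted p = 6.59e-07). *Cdca8*, the borealin subunit of the chromosomal passenger complex, rose from 6.52 and 7.74 to 44.1 and 42.8 FPKM (2.45 ± 0.12). *Ube2c*, the ubiquitin conjugating enzyme of the anaphase promoting complex, rose from 25.7 and 24.5 to 140.5 and 133 FPKM (2.4 ± 0.08, adjusted p = 5.91e-07). *Knstrn*, a spindle and kinetochore protein, rose from 7.42 and 6.58 to 37 and 37.4 FPKM (2.26 ± 0.12). All 4 were 2.47 to 3.41 higher on the log2 scale than in wild type P56.

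Not every proliferation gene passed. *Mki67*, the usual marker of cycling cells, stood at 0.93 and 1.33 FPKM in wild type P30 and 2.59 and 2.75 in the mutant (0.79 ± 0.15, adjusted p = 0.00173), under 2-fold at low values. Its change was 1.19 with a pseudocount of 0.1 and 1.27 with length-centred values. *Pttg1*, securin, had the one negative value of the list, 111 and 114 FPKM against 68.1 and 69.2 (-0.70), and is named after its value was seen. Of 35 DNA replication genes 16 rose and 0 fell (28 positive and 1 negative at an unadjusted p under 0.05, limma), with a median of 0.85. *Tk1*, thymidine kinase, rose from 11.4 and 14.6 to 65.7 and 63.4 FPKM (2.24 ± 0.12, adjusted p = 3.96e-06). *Rrm2*, a subunit of ribonucleotide reductase, rose from 10.9 and 11.4 to 43.8 and 44.4 FPKM (1.89 ± 0.10). *Tyms*, thymidylate synthase, rose by 1.71, and *Gins1*, a subunit of the replicative helicase complex, by 1.67. Hair matrix and keratinocyte genes, whose cells divide in anagen skin, rose in the same libraries (below), and their part in these counts was not tested.

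Promoters of the mitosis genes with the largest rises are shown because this group moved together. They are RefSeq windows on GRCm38.p6, read as above. Capitals mark TTTGAA, the cell cycle homology element, and CCAAT, the box bound by NF-Y, on either strand (so also TTCAAA and ATTGG), and the marked letters of adjoining matches can overlap. *Cdca3* lies at chr6:124829926-124830225, plus strand, *Cdca8* at chr4:124936868-124937167, minus strand and *Ube2c* at chr2:164769679-164769978, plus strand.
*Cdca3*: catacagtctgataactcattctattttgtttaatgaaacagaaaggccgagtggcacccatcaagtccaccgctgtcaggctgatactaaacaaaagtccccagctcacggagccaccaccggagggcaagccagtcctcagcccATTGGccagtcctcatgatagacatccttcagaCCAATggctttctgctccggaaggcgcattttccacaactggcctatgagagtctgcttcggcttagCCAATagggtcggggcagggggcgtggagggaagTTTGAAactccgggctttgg
*Cdca8*: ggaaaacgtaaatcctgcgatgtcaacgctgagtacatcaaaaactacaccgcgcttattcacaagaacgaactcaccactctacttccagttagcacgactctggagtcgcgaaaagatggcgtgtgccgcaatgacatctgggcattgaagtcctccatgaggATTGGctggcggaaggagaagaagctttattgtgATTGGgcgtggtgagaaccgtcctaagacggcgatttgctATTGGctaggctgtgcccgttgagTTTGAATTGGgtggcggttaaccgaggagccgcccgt
*Ube2c*: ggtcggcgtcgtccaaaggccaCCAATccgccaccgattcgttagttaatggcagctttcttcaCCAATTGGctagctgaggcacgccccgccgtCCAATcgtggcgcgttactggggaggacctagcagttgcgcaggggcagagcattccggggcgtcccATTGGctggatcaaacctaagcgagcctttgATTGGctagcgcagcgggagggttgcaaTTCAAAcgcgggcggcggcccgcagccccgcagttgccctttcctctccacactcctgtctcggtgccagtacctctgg
Each of these 3 windows held 1 TTTGAA and several CCAAT matches, while the window of *Knstrn* held neither. TTTGAA was in 20 of the 33 windows of 31 mitosis genes (60.6%) against 17.9% of all 32851 windows, and CCAAT in 25 (75.8%) against 37.4%. In the 36 windows of DNA replication genes the shares were 13.9% and 61.1%. Over the 11876 windows of all tested genes they were 11.9% and 37.1%. These are counts of letters and were not tested.

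*Spp1* (ENSMUSG00000029304.14) is the gene of osteopontin, a secreted phosphoprotein of bone and inflamed tissue, and lies on chromosome 5, 104435118 to 104441050. It stood at 61.4 and 63 FPKM in wild type P30 and at 234 and 219 FPKM in the mutant, a 3.65-fold ratio of the means (1.85 ± 0.12, adjusted p = 9.36e-06). Wild type P56 libraries held 22 and 16.4 FPKM, so the anagen libraries lay between the telogen and mutant ones. The study describes *Spp1* in normal skin as largely limited to dermal papilla fibroblasts, and it found SPP1 protein raised in sorted nevus melanocytes. The dermal papilla list was higher in the mutant libraries (below), and the part of such cells in the *Spp1* values was not tested. Of 9 tested osteopontin receptors 3 rose and 1 fell. *Cd44*, the osteopontin and hyaluronan receptor, fell from 249 and 263 to 115 and 116 FPKM (-1.14 ± 0.07, adjusted p = 5.62e-06). This call was lost with length-centred values (-0.65). The integrin subunits *Itgb5* (7.23 and 8.04 to 49.2 and 45 FPKM, 2.48 ± 0.11), *Itga8* (1.25 ± 0.14) and *Itgb3* (1.07 ± 0.14) rose. Without wild type P30 replicate 1 the change of *Itgb3* was 0.95 and under 2-fold.

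The text of the study named 12 secretome genes of nevus melanocytes, part of a longer list it identified on these samples. They are *Bmp4*, *Fstl1*, *Frzb*, *Wif1*, *Wisp1*, *Igfbp2*, *Igfbp4*, *Igfbp7*, *Dhh*, *Fgf7*, *Spp1* and *Tnf*. All 12 were called higher, which is no independent evidence of their direction, here or in the other lists that hold them. Further genes of the study's longer list may stand in the lists below, and the same would hold for them. The largest of these changes, and of the whole comparison on the log2(FPKM + 1) scale, was that of *Wif1*, a secreted WNT inhibitor (ENSMUSG00000020218.11, chromosome 10, 121033960 to 121100650), from 2.17 and 3.58 to 189 and 179.8 FPKM (5.60 ± 0.16, adjusted p = 2.88e-07). *Igfbp4*, a carrier of insulin-like growth factors, rose from 23.9 and 31.1 to 530.0 and 474 FPKM (4.15 ± 0.12, adjusted p = 3.1e-07). *Igfbp7*, a related secreted protein, rose from 85 and 91.8 to 1414 and 1328 FPKM, a 15.5-fold ratio (3.94 ± 0.08). *Bmp4*, a bone morphogenetic protein, rose from 1.9 and 1.62 to 25.9 and 24.1 FPKM (3.24 ± 0.12, adjusted p = 7.31e-07). *Wif1* is also a dermal papilla marker, and the dermal papilla list as a whole was higher in the mutant libraries (below).

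The wider SASP lists did not move one way, where 12.2% of all genes rose and 9.85% fell. Of 30 tested cytokines and chemokines 5 rose and 8 fell (median -0.28). *Cxcl14*, a chemokine of skin, rose from 24.9 and 25.4 to 120.3 and 118 FPKM (2.20 ± 0.07, adjusted p = 3.73e-07). *Tnf*, tumour necrosis factor, rose from 1.69 and 2.33 to 12.5 and 11.6 FPKM (2.12 ± 0.15). *Ccl8*, a monocyte chemokine, fell from 439 and 360.4 to 92.9 and 83.6 FPKM (-2.16 ± 0.11, adjusted p = 2.33e-06), and *Il6*, given above, fell as well.

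For the next 2 lists, the shares over all genes are again 12.2% higher and 9.85% lower. Of 27 growth factors and binding proteins 7 rose and 4 fell. Among these rises *Igfbp2*, *Igfbp4* and *Igfbp7* are genes the study named on these samples. *Inhba*, the activin A subunit, rose from 2.42 and 3.21 to 68.9 and 67.3 FPKM (4.19 ± 0.12, adjusted p = 3.1e-07), and *Igfbp2* from 19.8 and 21.9 to 164 and 151 FPKM (2.86 ± 0.10). Of 29 proteases and inhibitors 4 rose and 7 fell. Without wild type P30 replicate 2, 7 rose, and with length-centred values 3 fell. *Mmp11*, stromelysin 3, rose from 5.55 and 6.33 to 42.7 and 33.4 FPKM (2.48 ± 0.15, adjusted p = 5.04e-06). *Mmp12* and *Mmp3*, an elastase and a stromelysin, fell (-1.93 ± 0.14 and -1.74 ± 0.15), and *Adamts1*, an aggrecan protease, fell from 48.1 and 51.8 to 17 and 16.1 FPKM (-1.54 ± 0.09).

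WNT genes were higher on both sides of the pathway, the activating and the blocking one. Of 29 ligands and receptors 16 rose and 2 fell (median 1.37). With 1 FPKM in all 4 libraries 6 rose and 1 fell. Without wild type P30 replicate 1 only 1 fell. *Rspo3*, an R-spondin that amplifies WNT signals, rose from 0.45 and 0.6 to 27.4 and 31.7 FPKM (4.32 ± 0.16, adjusted p = 6.42e-07). *Rspo4* rose from 2.46 and 2.4 to 32.5 and 29.7 FPKM (3.23 ± 0.12), and *Rspo1* from 3.22 and 2.86 to 35.5 and 32.1 FPKM (3.11 ± 0.13). *Wnt3*, a canonical ligand, rose from 0.82 and 0.32 to 8.18 and 8.02 FPKM (2.55 ± 0.19). The 3 R-spondin genes thus stood under 4 FPKM in both wild type P30 libraries and near 30 FPKM in the mutant ones.

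Of 14 WNT antagonists 9 rose and 1 fell (median 1.56), and with 1 FPKM in all 4 libraries 4 rose. *Wif1* and *Frzb* of this list are among the genes the study named. After *Wif1* came *Sostdc1*, a secreted WNT and BMP inhibitor, from 4.54 and 5.93 to 115 and 117 FPKM (4.24 ± 0.11, adjusted p = 2.88e-07). Wild type P56 libraries held 94.7 and 87.7 FPKM of it, a difference of 0.35. *Kremen2*, a receptor for Dickkopf proteins, rose from 0.27 and 0.41 to 8.31 and 7.41 FPKM (2.73 ± 0.15). *Frzb*, a decoy receptor, rose from 0.42 and 0.52 to 7.36 and 7.6 FPKM (2.53 ± 0.14). Of 14 WNT target genes 7 rose and 1 fell. *Wisp1* rose from 1.4 and 2.05 to 25.8 and 22.1 FPKM (3.20 ± 0.17, adjusted p = 2.91e-06), the feedback enzyme *Notum* from 4.89 and 7.34 to 41.4 and 37.5 FPKM (2.53 ± 0.18) and the ubiquitin ligase *Znrf3* from 2.48 and 2.67 to 18.8 and 19.3 FPKM (2.49 ± 0.12). The target that fell, *Axin2*, the scaffold most used as a WNT readout, is named after its value was seen and stood at 7.23 and 5.29 FPKM against 2.05 and 2.51 (-1.14 ± 0.19). It was under 2-fold without wild type P30 replicate 1 and with length-centred values.

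Of 15 BMP and TGFB ligands 6 were higher and 0 lower in limma (1 negative at an unadjusted p under 0.05), beside 12.2% and 9.85% of all genes. With 1 FPKM in all 4 libraries 2 were higher. A member under 1 FPKM in both wild type P30 libraries, such as *Gdf10*, could only be called higher. Beside *Inhba* and *Bmp4*, *Gdf10* rose from 0.11 and 0.31 to 6.56 and 5.88 FPKM (2.58 ± 0.15) and *Bmp2* from 0.78 and 1.34 to 6.41 and 5.24 FPKM (1.74 ± 0.17), while *Bmp2* differed by 0.03 from wild type P56. Of 14 antagonists 4 rose and 1 fell, and with 1 FPKM in all 4 libraries 2 rose. *Fstl1*, a secreted follistatin-like protein, rose from 33.9 and 35.7 to 142 and 150.1 FPKM (2.04 ± 0.16). *Twsg1*, which binds BMPs with chordin, fell from 39.6 and 40.7 to 7.01 and 7.81 FPKM (-2.29 ± 0.10, adjusted p = 1.35e-06). The inhibitory *Smad6* (1.60 ± 0.16) and the chordin-like *Bmper* (1.41 ± 0.13) rose from under 1 FPKM.

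BMP target genes were mostly higher. Of 10 tested 7 rose, and all 10 had a positive change (median 1.62). *Msx1*, a homeobox gene of the hair matrix and of neural crest derivatives, rose from 1.3 and 0.64 to 51.4 and 48.7 FPKM (4.71 ± 0.17, adjusted p = 6.31e-07), and *Msx2* from 2.56 and 1.72 to 49.3 and 52.1 FPKM (4.05 ± 0.15). *Id1*, an inhibitor of differentiation by basic helix-loop-helix factors, rose from 53.1 and 45.8 to 590.2 and 566 FPKM (3.52 ± 0.09, adjusted p = 2.48e-07), and *Id3* from 219 and 200.1 to 822 and 762 FPKM (1.91 ± 0.08). In wild type P56 *Id1* stood at 1171 and 1104 FPKM and *Id3* at 2087 and 1934 FPKM, so that for both genes the mutant lay between the wild type ages.

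Other ligand families held single strong members. Of 12 hedgehog pathway genes 5 rose, or 1 with 1 FPKM in all 4 libraries, among them the decoy receptor *Hhip* (0.02 and 0.15 to 8.36 and 7.41 FPKM, 3.03 ± 0.14, adjusted p = 1.78e-06) and the transcription factor *Gli1* (0.23 and 0.17 to 2.92 and 2.68 FPKM, 1.66 ± 0.13), besides *Dhh*. Of 14 Notch pathway genes 6 rose and 3 fell, with 2 rises at 1 FPKM in all 4 libraries and 1 fall with length-centred values. The ligand *Jag1* rose from 4.56 and 4.57 to 30.9 and 34.2 FPKM (2.59 ± 0.11, adjusted p = 1.35e-06), *Dll1* by 2.18 ± 0.21 and *Jag2* by 1.80 ± 0.14, while the receptor *Notch1* fell from 11.2 and 12.8 to 3.9 and 3.35 FPKM (-1.49 ± 0.12). Of 21 FGF and receptor tyrosine kinase ligands 5 rose and 2 fell, or 3 and 1 with 1 FPKM in all 4 libraries. *Nrg2*, a neuregulin, rose from 1.08 and 1.56 to 13.6 and 13.7 FPKM (2.67 ± 0.16, adjusted p = 5.33e-06). *Fgf7*, the keratinocyte growth factor, rose from 2.92 and 4.83 to 21.8 and 19.4 FPKM (2.17 ± 0.19). *Edn3*, the endothelin that expands melanoblasts, rose from 0.37 and 0 to 3.41 and 3.79 FPKM (1.97 ± 0.18). *Gdnf*, a neurotrophic factor, fell from 10.3 and 10.7 to 1.75 and 1.73 FPKM (-2.06 ± 0.11).

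**Figure D4:**
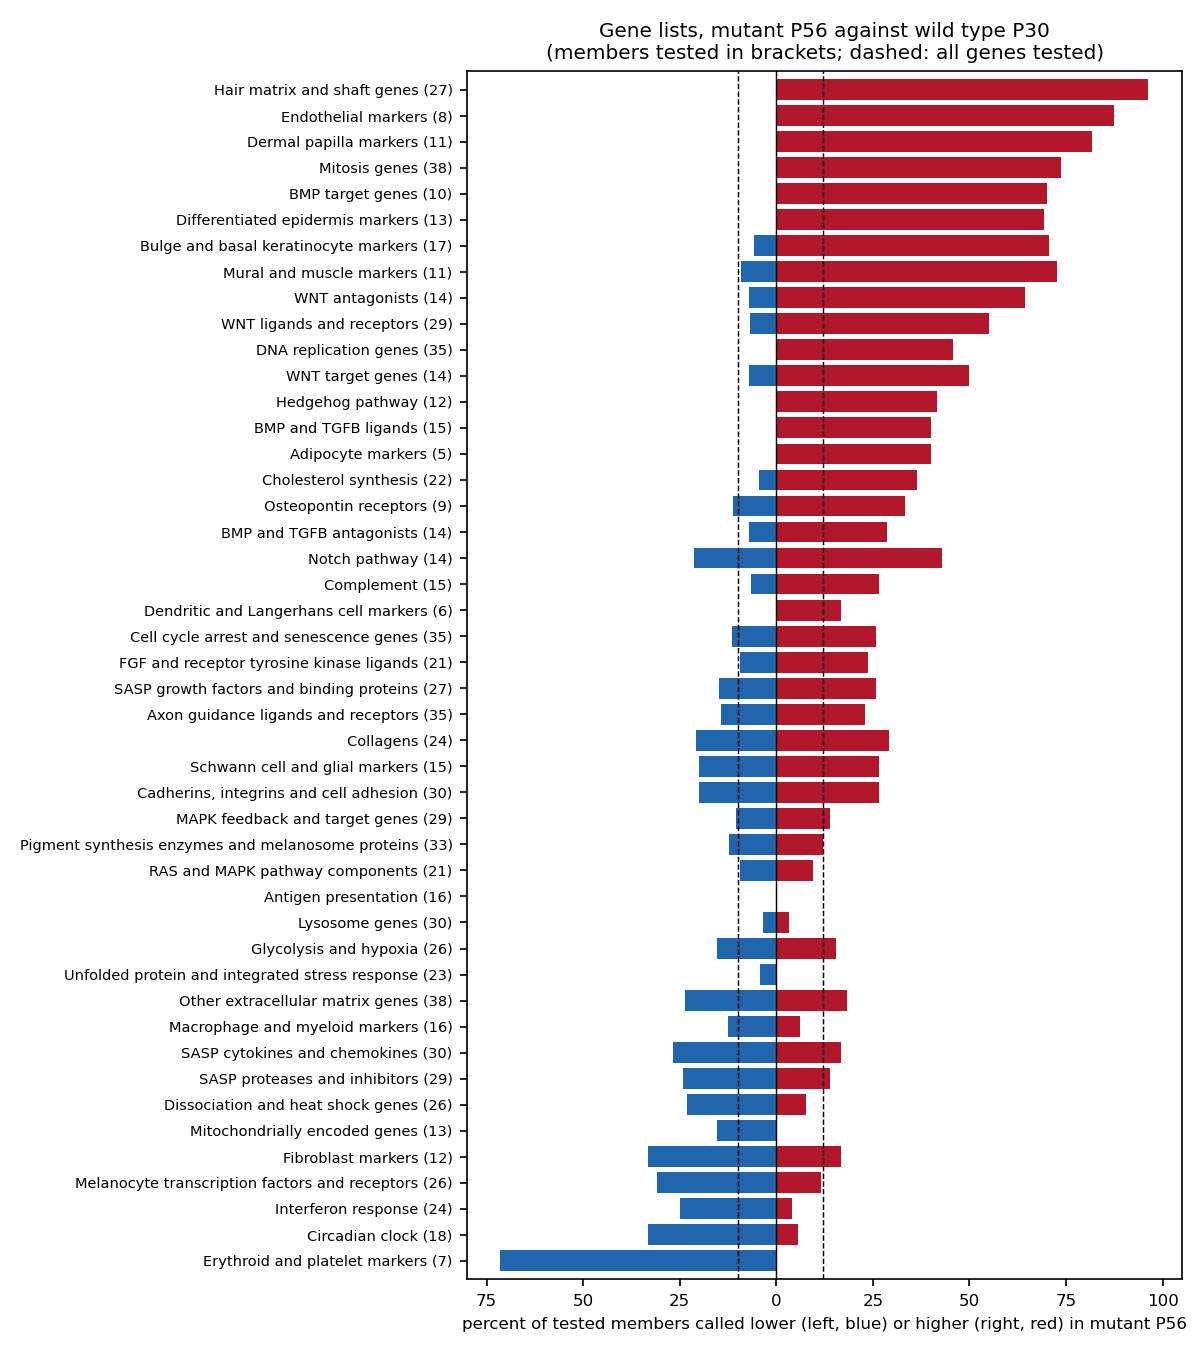
Percent of the tested members of each gene list, leaving out sex genes and both lists the study named on these samples, called higher (red, right) or lower (blue, left) in the mutant, with the number tested in brackets and dashed lines at the shares of all genes, 12.2% higher and 9.85% lower. Hair matrix and shaft genes, endothelial markers, dermal papilla markers and mitosis genes lead on the higher side, and erythroid markers, fibroblast markers and circadian clock genes on the lower side.

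The libraries also differed in markers of other skin cells, and these differences run beside the WNT, BMP and hedgehog results above. Of 27 hair matrix and shaft genes 26 rose (median 2.51), or 14 with 1 FPKM in all 4 libraries. Their summed FPKM was 182 and 186 in wild type P30, 1693 and 1609 in the mutant and 144 and 138 in wild type P56. *Krt35*, a keratin of the hair cortex and cuticle, rose from 18.7 and 17.6 to 377 and 356 FPKM (4.26 ± 0.08, adjusted p = 1.05e-07). *Dlx3*, a transcription factor of the matrix, rose from 1.89 and 1.67 to 51.5 and 48.8 FPKM (4.20 ± 0.12). The hair keratins *Krt83* (4.39) and *Krt33b* (4.58) were among the 12 largest rises of the comparison, and *Krt33b* shares sequence with a near copy. *Lef1* and *Msx2* belong to this list as well.

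Of 11 dermal papilla markers 9 rose (median 2.53), or 4 with 1 FPKM in all 4 libraries, and the list summed to 66.5 and 64 FPKM in wild type P30, 536 and 524 in the mutant and 222 and 206 in wild type P56. Its leading members were *Wif1*, *Rspo3* and *Sostdc1*, given above, and *Corin*, a protease of the dermal papilla, which rose from 0.49 and 0.63 to 10.2 and 11.2 FPKM (2.90 ± 0.13, adjusted p = 1.62e-06) and stood at 0.15 and 0.13 FPKM in wild type P56. Of 17 bulge and basal keratinocyte markers 12 rose and 1 fell (0 without mutant P56 replicate 2 or wild type P30 replicate 1), and the list summed to 964 and 1009 FPKM in wild type P30, 3373 and 3147 in the mutant and 6037 and 5619.8 in wild type P56. The desmosome gene *Perp* rose from 58.2 and 63.2 to 434 and 435 FPKM (2.82 ± 0.07, adjusted p = 2.48e-07), the epithelial regulator *Trp63* from 3.15 and 3.37 to 21.6 and 19 FPKM (2.32 ± 0.11), *Sfn* by 2.21 ± 0.07 and *Krt17* by 2.19 ± 0.08. Against wild type P56 none of these 17 markers was called higher and 5 were lower. Of 13 markers of differentiated epidermis 9 rose, or 5 with 1 FPKM in all 4 libraries, led by *Krt10* (2.57 and 2.89 to 16.1 and 16.4 FPKM, 2.21 ± 0.11, adjusted p = 2.46e-06), *Krt1* (1.87 ± 0.13), *Lor* (1.85 ± 0.14) and *Ivl* (1.84 ± 0.18). The part of such cells in the other results was not tested.

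**Figure D5:**
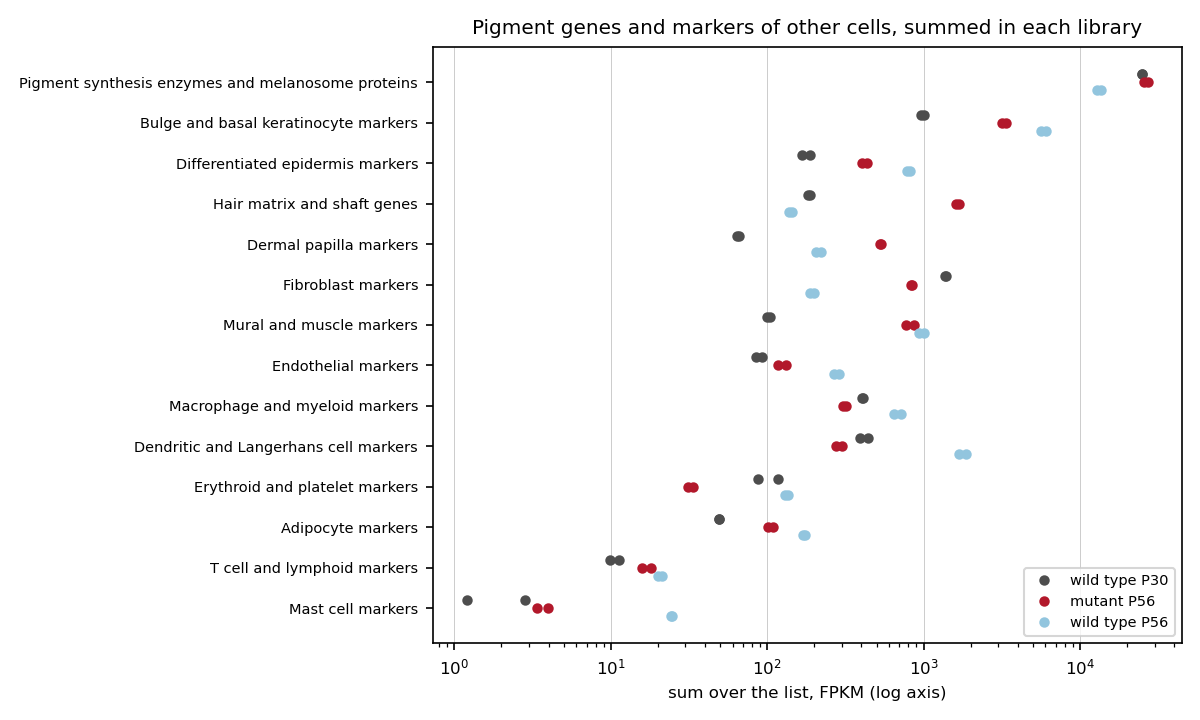
Summed FPKM of the pigment list and of 13 lists of other cells in each library, on a log axis, for wild type P30 (dark grey), mutant P56 (red) and wild type P56 (light blue). Hair matrix genes sum to 182 and 186 in wild type P30 and to 1693 and 1609 in the mutant, while the pigment sums of these 2 groups lie close together.

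Contractile genes were among the largest rises. *Acta2*, smooth muscle actin, rose from 19.2 and 21.5 to 513 and 467 FPKM (4.52 ± 0.09, adjusted p = 1.05e-07), with 27.4 and 28.2 in wild type P56. *Actg2* rose from 2.82 and 3.62 to 102 and 88.6 FPKM (4.51 ± 0.13). *Acta1*, skeletal muscle actin, rose from 4.22 and 3.2 to 107 and 85.9 FPKM (4.37 ± 0.14) and was higher still in wild type P56 (364 and 337 FPKM), as was the muscle creatine kinase *Ckm* (0.65 and 0.81, 26.3 and 23.4 and 112 and 106 FPKM in the order wild type P30, mutant, wild type P56). Actin genes are near copies of each other and may share reads. Of 11 mural and muscle markers 8 rose and 1 fell. *Myh11*, a defining smooth muscle myosin, was at 0.38 and 0.38 FPKM in wild type P30 and 0.12 and 0.1 in the mutant, and *Rgs5*, a pericyte marker, at 0.9 and 0.58 and 0.1 and 0.28. Neither passed the filter on low values, and both were named after their values were seen. The other untested members of the list went the other way. *Cnn1* was at 0.18 and 0.4 FPKM in wild type P30 and 0.92 and 0.91 in the mutant, and *Notch3* at 0.01 and 0.22 and 0.4 and 0.44.

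Endothelial markers were low. Of 8 tested 7 rose, or 3 with 1 FPKM in all 4 libraries and 4 with length-centred values, with summed FPKM of 92.7 and 85.1 in wild type P30, 133 and 117 in the mutant and 289 and 265 in wild type P56. *Cldn5* rose from 0.92 and 1.46 to 6.76 and 5.38 FPKM (1.69 ± 0.16), *Egfl7* by 1.63 ± 0.23 and *Emcn* by 1.60 ± 0.27. *Pecam1* rose by 1.2 ± 0.17 and by 0.97, under 2-fold, without wild type P30 replicate 2. Immune cell markers were present, and the macrophage list summed to 406 and 411 FPKM in wild type P30, 319 and 304 in the mutant and 716 and 650.0 in wild type P56. The dendritic and Langerhans cell list summed to 439 and 389, 301 and 277 and 1860.4 and 1686 FPKM in the same order. The pan-leukocyte and T cell markers chosen after their values were seen were low, with *Ptprc* (CD45) at 1.15 and 0.59 FPKM in wild type P30 and 0.18 and 0.47 in the mutant and *Cd3e* at 0.8 and 0.8 and 0.23 and 0.3. Of 16 macrophage markers 2 fell (*Mrc1*, -1.42 ± 0.14, and *Laptm5*, -1.09 ± 0.14, which was at -0.92 without mutant P56 replicate 2). With 1 FPKM in all 4 libraries 1 macrophage marker fell. Of 6 dendritic and Langerhans cell markers the epithelial adhesion gene *Epcam* rose (10.9 and 9.63 to 41.2 and 41.7 FPKM, 1.92 ± 0.10). Neither of the 2 tested mast cell markers was called by limma (2 positive and 0 negative at an unadjusted p under 0.05), *Mcpt4* (0.73, and 1.14, called, without wild type P30 replicate 1) and *Gata2* (0.73). None of 4 lymphoid markers was called (3 positive and 0 negative at an unadjusted p under 0.05, limma), among them *Thy1* (0.74) and *Lck* (0.61). Of 7 erythroid and platelet markers 5 fell, with *Hba-a2* from 35.3 and 27.2 to 6.23 and 5.55 FPKM (-2.22 ± 0.13), and *Hbb-bs* (-2.12 ± 0.22), *Hbb-bt* (-2.42 ± 0.17) and *Hba-a1* (-1.49 ± 0.23) fell as well. Globin genes are near copies whose reads the counting may split. Of 5 adipocyte markers 2 rose and 0 fell by limma (median -0.17), with 1 lower on leaving out either mutant library or wild type P30 replicate 1. *Fabp4* (9.87 and 8.54 to 63.2 and 71.2 FPKM, 2.74 ± 0.10) and *Lpl* (1.68 ± 0.11) rose, while *Pparg* (-1.0, just under 2-fold) and *Adipoq* (-0.95), named after their values were seen, had negative changes at an adjusted p under 0.05.

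Fibroblast markers split. Of 12 tested 2 rose and 4 fell (median -0.21), and with length-centred values 2 fell. The list summed to 1372 and 1389 FPKM in wild type P30, 849 and 831 in the mutant and 199 and 189 in wild type P56. *Col1a2*, a chain of collagen I, fell from 268 and 275 to 91.8 and 91 FPKM (-1.56 ± 0.07, adjusted p = 1.35e-06), and *Col3a1* from 314 and 309 to 122 and 120.3 FPKM (-1.36 ± 0.10). *Mfap5*, a microfibril protein, rose from 12.2 and 11.2 to 113 and 103 FPKM (3.10 ± 0.18, adjusted p = 4.73e-06), and *Fbln1*, fibulin 1, from 14.6 and 11.3 to 47.9 and 44 FPKM (1.76 ± 0.12).

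Matrix genes split likewise, where 12.2% of all genes rose and 9.85% fell. Of 24 collagens 7 rose and 5 fell, and with 1 FPKM in all 4 libraries 4 rose. With length-centred values 2 fell. *Col6a3*, a chain of beaded filament collagen VI, rose from 4.61 and 7.52 to 47.6 and 44.9 FPKM (2.77 ± 0.18, adjusted p = 8.91e-06). *Col4a2*, of basement membranes, rose from 2.62 and 2.39 to 12.5 and 11.9 FPKM (1.92 ± 0.12). *Col5a3* fell from 19.6 and 17.7 to 5.58 and 5.29 FPKM (-1.61 ± 0.13). Of 38 other extracellular matrix genes 7 rose and 9 fell, and with length-centred values 11 rose and 3 fell. The proteoglycan *Bgn* rose from 47.5 and 53 to 369 and 359.7 FPKM (2.84 ± 0.08, adjusted p = 3.02e-07), the matricellular *Postn* from 9.9 and 10.2 to 64.2 and 67.5 FPKM (2.60 ± 0.09), *Ogn* by 2.41 ± 0.14 and the laminin chain *Lama5* by 1.81 ± 0.17.

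Cell contact genes changed in both directions, where 12.2% of all genes rose and 9.85% fell. *Cdh1*, E-cadherin, which holds melanocytes to keratinocytes (chromosome 8, 106603351 to 106670246), fell from 66.4 and 66.5 FPKM in wild type P30 to 13.1 and 12.6 FPKM in the mutant (-2.28 ± 0.09, adjusted p = 7.31e-07), a ratio of 0.19. Wild type P56 libraries were at 10.9 and 10.4 FPKM, close to the mutant (log2 difference 0.25). The fall of this epithelial cadherin stands beside a rise of keratinocyte markers in the same libraries. *Cdh6*, a cadherin of the neural crest, rose from 1.3 and 1.14 to 15.6 and 14.5 FPKM (2.86 ± 0.15, adjusted p = 2.8e-06). *Itga1*, a collagen receptor subunit, fell from 6.4 and 7.05 to 0.78 and 0.82 FPKM (-2.10 ± 0.13). Of 30 cadherins, integrins and adhesion genes 8 rose and 6 fell. Of 35 axon guidance genes 8 rose and 5 fell, and with length-centred values 2 fell. *Sema4a*, a semaphorin, rose from 1.12 and 1.45 to 10.1 and 9.54 FPKM (2.24 ± 0.14), *Efna5*, an ephrin, rose by 1.69 ± 0.11, and *Plxna1*, a plexin receptor, and *Sema6d* fell (-1.72 ± 0.16 and -1.64 ± 0.14).

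Interferon response genes leaned to the lower side. Of 24 tested 1 rose and 6 fell, and 22 had a negative change (median -0.77 against 0.13 over all genes). With length-centred values 10 fell and with quantile normalization 11. *Ifit2*, an interferon-induced RNA binding protein, fell from 5.06 and 4.06 to 0.51 and 0.24 FPKM (-2.02 ± 0.16, adjusted p = 2e-05). *Mx1*, an antiviral GTPase, fell from 6.41 and 6.08 to 1.42 and 1.52 FPKM (-1.55 ± 0.12). *Isg15*, a ubiquitin-like modifier, fell from 28.7 and 21.6 to 9.61 and 11.1 FPKM (-1.2 ± 0.15), and lost the 2-fold threshold without wild type P30 replicate 1. The chemokine *Cxcl9* rose from 1.44 and 1.76 to 6.81 and 5.97 FPKM (1.51 ± 0.36).

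Of 16 antigen presentation genes limma called 0 higher and 0 lower, with 1 positive and 10 negative at an unadjusted p under 0.05. Over all 12222 genes 12.2% were called higher and 9.85% lower, and 8374 passed even the adjusted p at any fold. *B2m*, the light chain of MHC class I, stood at 7363 and 6772 FPKM in wild type P30 and 3467 and 3752 in the mutant (-0.97 ± 0.09, adjusted p = 3.66e-05), and passed 2-fold without mutant P56 replicate 2 (-1.03) or wild type P30 replicate 2 (-1.03). *H2-D1*, a class I heavy chain, stood at 1594 and 1688 against 1028 and 930.1 FPKM (-0.75 ± 0.09). With length-centred values 6 of the 16 were lower, *B2m* (-1.44) and *H2-D1* (-1.18) among them. *Cd274*, the checkpoint ligand PD-L1, was one of the 12 largest falls, from 17.8 and 17.9 to 1.58 and 1.22 FPKM (-2.98 ± 0.13, adjusted p = 1.14e-06). Of 15 complement genes 4 rose and 1 fell, with 2 falls without wild type P30 replicate 2 and 3 with length-centred values or quantile normalization. *C4b* fell from 245 and 259 to 61.8 and 64.8 FPKM (-1.98 ± 0.07), while *Clu* (2.14 ± 0.24), *C1s1* (1.59 ± 0.14) and *C1ra* (1.44 ± 0.12) rose.

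Genes that respond to tissue dissociation and heat shock were examined because the cells were sorted. Shares over all genes were 12.2% higher and 9.85% lower. Of 26 tested 2 rose and 6 fell, and the list summed to 17480.1 and 18386 FPKM in wild type P30, 14250.2 and 13638 in the mutant and 29129.7 and 27250.4 in wild type P56. *Hspa1b*, an inducible HSP70, fell from 159 and 121 to 21.9 and 22.1 FPKM (-2.60 ± 0.12, adjusted p = 1.9e-06), and *Hsph1*, HSP105, from 92.5 and 111 to 16.8 and 15.7 FPKM (-2.57 ± 0.11). *Klf6*, an early response transcription factor, fell from 298 and 326 to 86.7 and 87.3 FPKM (-1.83 ± 0.07). *Fosb*, given above, belongs to this list. The part of dissociation in these changes was not tested.

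The remaining genes among the 12 largest rises were *Sct*, which encodes the hormone secretin (1.57 and 1.72 to 88.3 and 79.96 FPKM, 5.01 ± 0.12, adjusted p = 2.48e-07), the hair keratin-associated *Krtap15* (0.2 and 0.4 to 41.5 and 44.3 FPKM, 5.08 ± 0.13), *5430421N21Rik*, which lies in a keratin cluster on chromosome 15 (4.78 ± 0.19), and *Foxq1*, a forkhead factor of hair differentiation (0.62 and 0.75 to 42.5 and 40.9 FPKM, 4.66 ± 0.15). Each of these had larger values in both mutant libraries than in any wild type library of either age. Among the 12 largest falls, *S100a4*, a calcium binding protein of motile cells, fell from 2630.0 and 2071 to 279 and 229 FPKM (-3.20 ± 0.13, adjusted p = 1.07e-06), with 740.2 and 666 FPKM in wild type P56. *Sdc3*, syndecan 3, a heparan sulphate proteoglycan, fell from 222 and 227 to 19.2 and 17.2 FPKM (-3.56 ± 0.13, adjusted p = 6.31e-07) and was lower again in wild type P56 (3.74 and 2.7 FPKM). *Osmr*, the oncostatin M receptor, fell from 27.1 and 24.8 to 2.33 and 2.78 FPKM (-2.93 ± 0.12), *Ankrd28*, a regulatory phosphatase subunit, from 28.2 and 28.1 to 2.24 and 2.58 FPKM (-3.10 ± 0.11), and *B4galt5*, a galactosyltransferase, from 43.6 and 30.7 to 4.16 and 4.15 FPKM (-2.87 ± 0.15).

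The remaining large falls include genes with uncertain counts. *Lars2*, the mitochondrial leucyl-tRNA synthetase, fell from 772 and 697 to 58.7 and 61.3 FPKM (-3.59 ± 0.09, adjusted p = 2.48e-07) and changed its call under no alternative. The alternatives reuse the same FPKM values, so they cannot show whether its reads were assigned rightly, which was not tested. The genes that follow may share reads. *Klk1b24* (-2.94 ± 0.15) and *Klk1b27* (-2.89 ± 0.14) are kallikreins of a family of near copies, and *Gm10800* (13.3 and 10.4 to 0.37 and 0.33 FPKM, with 1712 and 1936 in wild type P56) is a predicted gene in repeated sequence. *mt-Nd4l*, a subunit of complex I encoded in mitochondria, was listed at 61.3 and 21.8 FPKM in wild type P30, at 0 in both mutant libraries and at 0 and 66.4 in wild type P56, and its call was lost without wild type P30 replicate 1 or without either mutant replicate. Of 13 mitochondrially encoded genes 0 rose and 2 fell by limma (5 positive and 4 negative at an unadjusted p under 0.05), the second being *mt-Co3* (1021 and 727 to 382 and 327 FPKM, -1.28 ± 0.25). With 1 FPKM in all 4 libraries 1 mitochondrially encoded gene fell. Y-linked transcripts were detected in every library, with *Ddx3y* at 22 and 26.6 FPKM in wild type P30 and 7.65 and 9.26 in the mutant (-1.42 ± 0.13), the one call among 4 sex genes.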

How the data were processed

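Total RNA of sorted tdTomato+ cells was made into full-length cDNA, amplified with the Smart-seq2 method and sequenced from both ends. The authors aligned the reads with STAR 2.4.2 to GRCm38 (mm10) and obtained gene-level FPKM from RSEM. These deposited FPKM values carry no stated scaling between libraries, and the melanocyte table holds no counts, so the depth is unknown and only the spread between 2 libraries measures precision. A search for the steps that whole reads would leave put at most 3.27% of low genes in a bin between wild type P30 replicate 1 and another library, so reads were not recovered. Gene symbols turned into dates by a spreadsheet (24) were restored from their identifiers. Groups were taken from the labels, and tables of other cell types were not used here.

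Protein-coding genes with 1 FPKM or more in at least 2 of the 4 libraries were fitted as log2(FPKM + 1) with limma 3.58.1 in R 4.3.3, with 1 mean per group over all 6 melanocyte libraries and a variance trend (residual degrees of freedom 3). The Benjamini-Hochberg adjusted p is two-sided over the 12222 genes. The study's own test needs counts. The fit was tested on simulated data. Alternatives were other pseudocounts, filters, scalings, a test against 2-fold, 4 libraries only, no variance trend, a replicate block and leaving out each library. The length-centred values, and all alternatives for wild type P56, were added after the data were seen. The members and the 51 gene lists (1024 genes) were chosen with earlier results of these data known.

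Named by rule are the 12 called genes that rose most and the 12 that fell most (5 FPKM or more in the higher group, no overlap), up to 4 called members with the largest change of each list (2 with the highest mean where none was called), and *Nras*, *Spp1*, *Cd44*, *Cdkn2a*, *Cdkn2b*, *Cdkn1a*, *Mki67*, *Mitf*, *Sox10*, *Kit*, *Tyr*, *Tyrp1*, *Dct*, *Pmel* and *Cdh1*. *Ptprc* and *Cd3e* were chosen after their values were seen. A few genes that this rule names are not reported here. Positions are from the GRCm38 annotation.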

Additional observations from a re-analysis of the deposited data

How the results depend on the processing

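Under 16 of 17 alternatives the number of calls stayed within 1.5 times of 2695. A test against a 2-fold change itself called 1142 genes (696 higher, 446 lower), or 2076 against wild type P56, and ended 21 of 174 named calls (*mt-Nd4l*, *Cd44*, *Hras*, *Ptpn11*, *Itga8*, *Itgb3*, *Bmper*, *Cxcl9*, *Isg15*, *Eif2ak3*, *Npc1*, *Glb1*, *Slc16a3*, *mt-Co3*, *Mrc1*, *Laptm5*, *Egfl7*, *Emcn*, *Pecam1*, *Hba-a1* and *Ddx3y*). It moved 43 of the counts over gene lists by more than 1.5 times, and length-centred values moved 27. Requiring 1 FPKM in all 4 libraries left 973 higher genes of 10631 tested, and by its construction took out members that are low in wild type P30 (hair matrix 14 higher, WNT ligands and receptors 6). Quantile normalization moved the median of all genes by -0.13 and turned the split into 1278 higher and 1516 lower, from 55.3% to 45.7% higher. The cause of this turn was not tested. Leaving out 1 library gave 2698 to 2789 calls (1458 to 1569 higher, 1206 to 1271 lower) and 3580 to 3701 against wild type P56. The order of the largest rises depends on the scale, and at a pseudocount of 0.1 *Krtap15* and *Krt33b* exceed *Wif1*, as *Foxq1* does with length-centred values. *Pmel*, not called above, changed sign with quantile normalization (-0.046) and with length-centred values (-0.39), and it ranged from -0.043 to 0.147 without 1 mutant P56 replicate. With a replicate block, which pairs libraries by number, 2692 genes were called. Deviations of same-numbered libraries correlated across genes at -0.016, -0.0035 and 0.048. The difference between replicates 1 and 2 followed transcript length with the same sign in every group (rho -0.0784 in wild type P30, -0.10 in the mutant and -0.127 in wild type P56). Whether same-numbered libraries share a batch was not tested. Depth is unknown and limits low genes most.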

Other observations

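Genes of sterol synthesis and sugar metabolism held calls in both directions. Over all 12222 genes 12.2% rose and 9.85% fell, and 8374 had an adjusted p under 0.05 at any fold. Of 22 genes of cholesterol synthesis 8 rose and 1 fell in the mutant against wild type P30, with a median log2 change of 0.77 against 0.13 over all genes tested. *Dhcr7*, the last enzyme of the pathway, rose from 31.6 and 30.5 to 108 and 100.3 FPKM (1.72 ± 0.08, adjusted p = 1.89e-06), *Mvd*, of the mevalonate steps, from 16.8 and 18 to 58.9 and 52.2 FPKM (1.62 ± 0.10), and *Insig1*, a sterol feedback protein, from 38.3 and 40.1 to 96.7 and 102 FPKM (1.32 ± 0.08). *Srebf2*, the transcription factor that drives the pathway, fell from 53.5 and 53.2 to 19.98 and 20.3 FPKM (-1.36 ± 0.08, adjusted p = 5.25e-06). *Insig1* and *Srebf2* both came under 2-fold with length-centred values. Of 26 glycolysis and hypoxia genes 4 rose and 4 fell, and 18 had a positive change at an adjusted p under 0.05. *Aldoc*, an aldolase, rose from 9.6 and 9.28 to 45.9 and 37.7 FPKM (2.03 ± 0.13), *Pgam1*, phosphoglycerate mutase, by 1.44 ± 0.07, under 2-fold with length-centred values, and *Slc16a3*, the lactate exporter, by 1.24 ± 0.13. *Hif1a*, the hypoxia-inducible factor, fell from 29 and 32.1 to 9.68 and 8.61 FPKM (-1.64 ± 0.12, adjusted p = 1.5e-05). Of 30 lysosome genes *Glb1*, whose product is the beta-galactosidase used to stain senescent cells, was the one that rose (15 and 13.8 to 33.8 and 30.9 FPKM, 1.11 ± 0.10), under 2-fold with length-centred values and with quantile normalization (0.98), and *Npc1*, a cholesterol transporter, fell (35.5 and 25.1 to 9.77 and 9.61 FPKM, -1.53 ± 0.19). Without wild type P30 replicate 2 or mutant P56 replicate 2, 3 lysosome genes rose.

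Of 18 circadian clock genes 6 fell and 1 rose (median -0.38), beside 9.85% and 12.2% of all genes. *Nr1d2*, a repressor of the clock, fell from 21.2 and 24.7 to 3.49 and 3.54 FPKM (-2.4 ± 0.12, adjusted p = 2.43e-06), *Per1* from 19.5 and 21.8 to 4.46 and 4.22 FPKM (-2.02 ± 0.11) and *Tef*, a clock output factor, from 43.1 and 42.5 to 11.7 and 11 FPKM (-1.83 ± 0.09), while *Per3* rose from 2.37 and 2.97 to 9.69 and 9.4 FPKM (1.53 ± 0.14, adjusted p = 3.71e-05). The hour at which each skin was taken was not stated, so time of day and group cannot be told apart. Of 23 genes of the unfolded protein and integrated stress responses 0 rose by limma (6 positive at an unadjusted p under 0.05), with 1 on leaving out mutant P56 replicate 2 or wild type P30 replicate 2, and 1 fell, the stress kinase *Eif2ak3* (7.16 and 10.1 to 3.06 and 3.13 FPKM, -1.22 ± 0.17), which was at -0.99 without wild type P30 replicate 2.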
